A study of Homo sapiens with 9 samples.

Results

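The receptors of the epidermal growth factor (EGF) family and the ligands that activate them were examined in A549 cells in which MED23 or ELK1 had been reduced. The genes were taken by name: the receptors EGFR, ERBB2 and ERBB3 and the ligands AREG, EREG, HBEGF and TGFA. Of these 7 genes, 6 were among the 19775 genes named by a probe set. A probe set, a group of short array probes for 1 transcript, was used when its annotation named exactly 1 of these genes. That gave 26 probe sets, 9 for EGFR, 3 for ERBB2, 5 for ERBB3, 2 for EREG, 4 for HBEGF and 3 for TGFA. AREG, which encodes amphiregulin, was not analysed here. The 9 RNA samples came from A549, a human lung adenocarcinoma line, grown in medium with serum and without treatment. The 3 si-Ctrl samples carried a control oligo, the 3 si-Med23 samples carried RNA interference oligos A, B and C against MED23, and the 3 si-Elk1 samples carried oligos A, B and C against ELK1. The design text describes the cells with each oligo as a line of their own, so the spread within a knockdown includes differences between oligos. Whether the controls were grown apart from each other is not stated, and p-values then cover the spread among these arrays, part of which may be technical.

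ERBB receptors are transmembrane tyrosine kinases that pair after a ligand binds and then recruit adaptors that switch on RAS and the ERK kinases. EGFR binds all 4 of the ligands considered here, whereas ERBB2 has no known ligand and acts as a partner, and ERBB3 has a weak kinase, binds neuregulins and couples strongly to phosphoinositide 3-kinase. The ligands are made as membrane proteins and are released by metalloproteases. Several of their genes are themselves induced by ERK signalling, in which ELK1 is a transcription factor of the ETS family phosphorylated by ERK and MED23 is the Mediator subunit that phosphorylated ELK1 contacts. The title of the series places the arrays in a study of MED23 in lung cancer, and the comparisons below ask how these receptor and ligand transcripts stand when either factor is reduced.

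Values are log2(signal + 1) of the probe set with the highest mean for each gene, and a difference of 1 is a 2-fold change. MED23 read 9.27, 9.05 and 9.08 in si-Ctrl and 6.79, 6.19 and 7.06 in si-Med23, and ELK1 read 9.36, 9.61 and 9.29 in si-Ctrl and 7.07, 7.15 and 7.83 in si-Elk1, so both targets lay lower in every sample labelled for them. The si-Elk1 oligo C array stood apart from its group. Over 12616 tested genes its median absolute log2 difference was 0.317 and 0.337 from the other si-Elk1 arrays, which differed from each other by 0.144, and 0.307 to 0.329 from the si-Med23 arrays. MED23 read 8.18 on it against 8.87 and 9.02 with oligos A and B. The fold change of each measured member in si-Elk1 against si-Ctrl is given below with and without this array. Other si-Elk1 values, those of the markers included, contain it unless stated. All epithelial markers of the fixed list were detected (KRT7, KRT8, KRT18, KRT19, EPCAM and CDH1). In si-Med23, 4 of these 6 rose (KRT19 1.36, CDH1 1.19, KRT8 0.80 and KRT18 0.44 as log2 fold changes), and in si-Elk1 CDH1 rose (1.04). Of all tested genes, 39.8% passed by limma in si-Med23, 20.3% higher, and 4.26% in si-Elk1, 3.07% higher. KRT19 lay below every control array in si-Elk1 (-0.74) and did not pass by limma (adjusted p = 0.244). PTPRC, CDH5, VWF and KDR, which define blood and endothelial cells, lay below the filter level of log2 6.05 on all 9 arrays. Among the other markers, CD14 of monocytes rose in both knockdowns (log2 fold change 1.65 in si-Med23 and 1.77 in si-Elk1), THY1 of fibroblasts rose in si-Elk1 (0.65), and CD3E of T cells was lower in si-Med23 than in si-Elk1. On 2 of the si-Med23 arrays CD3E lay below the filter level, and with signals raised to that level its difference was -1.20 in place of -2.49. PECAM1 of endothelium passed in no comparison. DCN, LUM and PDGFRA had means over the 9 arrays below the filter level and were left out of the test. DCN of fibroblasts was still above that level on every si-Elk1 array (7.16, 7.39 and 7.57). It read 4.34, 6.17 and 7.45 in si-Ctrl and lay below the level on every si-Med23 array (mean 3.51). LUM lay below it on 6 arrays and PDGFRA on 8. The part of these markers in the results was not tested.

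The regions before the starts of the member genes were read for letters that ETS factors favour, since ELK1 is such a factor. RefSeq gave the sequence before 8 starts of 6 of the 7 genes (GRCh38.p14). ERBB3 had no window in the sequences used here and was not searched. The 250 bases before each start were searched on both strands for the ETS core CCGGAA, the AP-1 site TGANTCA, the E-box CACGTG, the cAMP response element TGACGTCA and the CArG box of the serum response factor. The ETS core was found for 3 genes, in ERBB2 at 2 places and in AREG and TGFA at 1 place each. It was thus in 3 of the 8 windows, and in 14.5% of all 35116 such windows. The CArG box, present in 1.16% of all windows, was in none of the 8. ERBB2 and EREG are shown because they moved in opposite directions in si-Med23 and differ in these letters. They were picked for that contrast, and whether the letters go with a direction was not tested. Neither gene passed by limma in si-Elk1 (adjusted p = 0.267 and 0.0727). Capitals mark the ETS core on either strand, 25 and 14 bases before the ERBB2 start, and the AP-1 site also found in the ERBB2 window does not overlap them. The windows are chr17:39687844-39688093 for ERBB2 and chr4:74364895-74365144 for EREG, both on the plus strand and 5′ to 3′.
ERBB2: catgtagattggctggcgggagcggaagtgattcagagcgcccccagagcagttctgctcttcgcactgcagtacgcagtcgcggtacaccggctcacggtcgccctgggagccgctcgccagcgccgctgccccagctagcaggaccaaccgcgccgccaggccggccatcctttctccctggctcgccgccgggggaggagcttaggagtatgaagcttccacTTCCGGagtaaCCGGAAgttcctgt
EREG: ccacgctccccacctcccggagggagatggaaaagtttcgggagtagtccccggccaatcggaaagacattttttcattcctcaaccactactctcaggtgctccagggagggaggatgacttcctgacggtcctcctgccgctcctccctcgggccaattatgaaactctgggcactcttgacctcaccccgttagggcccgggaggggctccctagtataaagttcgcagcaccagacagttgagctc
The EREG window held none of the 5 motifs, which says only that these letters are not in these 250 bases.

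In si-Med23, 3 of the 6 measured members passed the test against si-Ctrl: the ligand EREG fell, and the receptor ERBB2 and the ligand TGFA rose. In the same comparison 39.8% of all 12616 genes passed, 20.3% higher and 19.5% lower, so that a count of 3 in 6 is near the background. In RNA from whole cultures, fewer cells with a transcript and less of it per cell cannot be told apart. The median log2 fold change of the members was 0.16, against 0.09 over all genes tested. For 5 of the 6 members all si-Med23 arrays lay on 1 side of all controls, as did 57.3% of all genes. All tests are from limma with Benjamini-Hochberg adjustment over the 12616 genes, at a threshold of 0.05. The 6 probe sets tested lay above the filter level on each of the 9 arrays, so none entered the test through its high group alone.

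In si-Elk1, 1 of the 6 members passed against si-Ctrl, the receptor ERBB3, which rose. In that comparison 4.26% of all genes passed, 3.07% higher and 1.19% lower. The median log2 fold change of the members was -0.03, against 0.05 over all genes, and 4 members had no overlap between the groups, which held for 36.3% of all genes. Between the knockdowns, 3 of 6 members passed, with TGFA higher and ERBB3 and EREG lower in si-Med23 than in si-Elk1, where 21.7% of all genes passed, 9.54% higher and 12.2% lower. In that comparison 2 members had no overlap, against 38% of all genes. Both knockdowns were set against the same 3 control arrays, so their values are given side by side and no agreement between them is read.

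**Figure D1:**
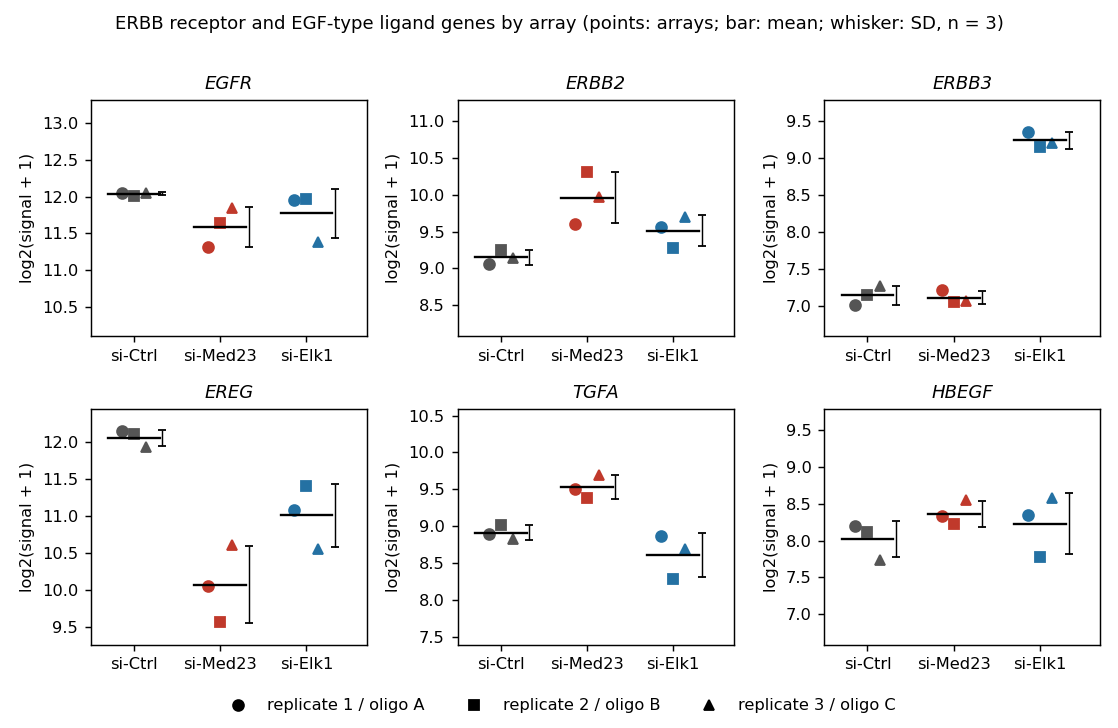
Each panel plots log2(signal + 1) of the highest probe set of a gene on the 9 arrays, by group, with the mean as a bar and the SD (n = 3) as a whisker; point shapes give the replicate or oligo, and every panel spans the same log2 range. ERBB3 stood between 9.15 and 9.36 on the si-Elk1 arrays and at or below 7.27 on the other arrays, and EREG was highest in si-Ctrl and lowest in si-Med23.

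Among the receptors, ERBB3 had the largest difference. Its main probe set read 7.01, 7.14 and 7.27 in si-Ctrl, 7.21, 7.05 and 7.07 in si-Med23 and 9.36, 9.15 and 9.21 in si-Elk1. All 3 si-Elk1 arrays lay above all 6 others, and the si-Ctrl and si-Med23 arrays overlapped. The log2 fold change in si-Elk1 was 2.10 ± 0.12 (SE, n = 3 arrays per group; 95% interval 1.83 to 2.37), a 4.29-fold rise with an adjusted p = 0.000303 that ranked 36 from the top among the 12616 genes. Leaving out si-Elk1 oligo C gave 2.12 (adjusted p = 0.00284), and over all alternatives that could be run the value lay between 1.20 and 2.16, with adjusted p-values up to 0.0220. In si-Med23 the log2 fold change was -0.03 (95% interval -0.30 to 0.24, adjusted p = 0.864). The direct comparison of the knockdowns gave -2.13 ± 0.12 for si-Med23 against si-Elk1 (adjusted p = 0.00027), and 22.9% of the si-Elk1 signal.

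The other ERBB3 probe sets differed in size. The next brightest read 6.99, 6.77 and 6.44 in si-Ctrl, 6.64, 7.01 and 6.81 in si-Med23 and 8.07, 8.17 and 8.25 in si-Elk1, again with no si-Elk1 array inside the range of the others. Its log2 fold change in si-Elk1 was 1.42 ± 0.20, with an adjusted p = 0.0749 over all 54613 probe sets, where 0.0787% of probe sets passed and the main ERBB3 probe set had 0.0185. In si-Med23 against si-Elk1 both passed over all probe sets by limma (adjusted p = 0.0195 and 0.0498), as did 0.419% of the total. The remaining 3 had mean signals below the filter level, with log2 fold changes in si-Elk1 of 1.29, 0.47 and 0.70 that did not pass. All 5 fitted values for ERBB3 in si-Elk1 were above 0, and the dim probe sets had the smaller ones, which rest on low signals. The probe set with 0.70 lay below the filter level on all 9 arrays, and those with 1.29 and 0.47 on 4 arrays each.

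ERBB2, the receptor without a known ligand, read 9.06, 9.25 and 9.14 in si-Ctrl, 9.60, 10.31 and 9.97 in si-Med23 and 9.56, 9.28 and 9.70 in si-Elk1. Every array of either knockdown lay above every control array, and oligo B gave the highest value of si-Med23 and the lowest of si-Elk1. The rise in si-Med23 was 0.81 ± 0.19 on the log2 scale (95% interval 0.37 to 1.24; adjusted p = 0.0119), a 1.75-fold change. It held with each array left out, between 0.63 and 0.99, but with scaling on the hybridization controls it was 0.31 (adjusted p = 0.157) and with poly-A spike scaling the sign turned to -0.80. In si-Elk1 the log2 fold change was 0.36 (95% interval -0.07 to 0.80; adjusted p = 0.267, and 0.27 without oligo C). The difference between the knockdowns, 0.44 (0.01 to 0.88), did not pass (adjusted p = 0.121). Both other ERBB2 probe sets were dim, 1 with a mean below the filter level and 1 with 4 of 9 arrays below it. Their log2 fold changes in si-Med23 were 1.12 and 0.64. In the fit over all probe sets neither passed, and nor did the main ERBB2 probe set (adjusted p = 0.0692 by limma).

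EGFR, the receptor of all the ligands measured, was lowest in si-Med23 but did not pass in any comparison. It read 12.05, 12.01 and 12.05 in si-Ctrl, 11.31, 11.64 and 11.84 in si-Med23 and 11.95, 11.97 and 11.39 in si-Elk1. All arrays of both knockdowns lay below the controls, and in si-Elk1 oligos A and B were close to the lowest control while oligo C was lower. The log2 fold change was -0.44 in si-Med23 (95% interval -0.88 to -0.01; adjusted p = 0.0942) and -0.27 in si-Elk1 (-0.70 to 0.17; adjusted p = 0.401), and the latter was -0.08 without oligo C. The si-Med23 value passed in the fit without si-Elk1 oligo C (adjusted p = 0.0351), which leaves its size unchanged, and with array weights or the trended prior (0.0275 and 0.0427). It was -0.94 with hybridization control scaling and -2.05 with poly-A spike scaling, which also passed (0.00553 and 8.39e-05), and -0.21 with median centring, which did not. Of the 9 EGFR probe sets, the 5 brightest had log2 fold changes from -0.55 to -0.21 in si-Med23 and from -0.28 to -0.01 in si-Elk1. The other 4, with wider errors, lay on both sides of 0. In the limma fit over all probe sets, where 7.89% passed in si-Med23, 0 of the 9 passed and 1 had an unadjusted p under 0.05.

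**Figure D2:**
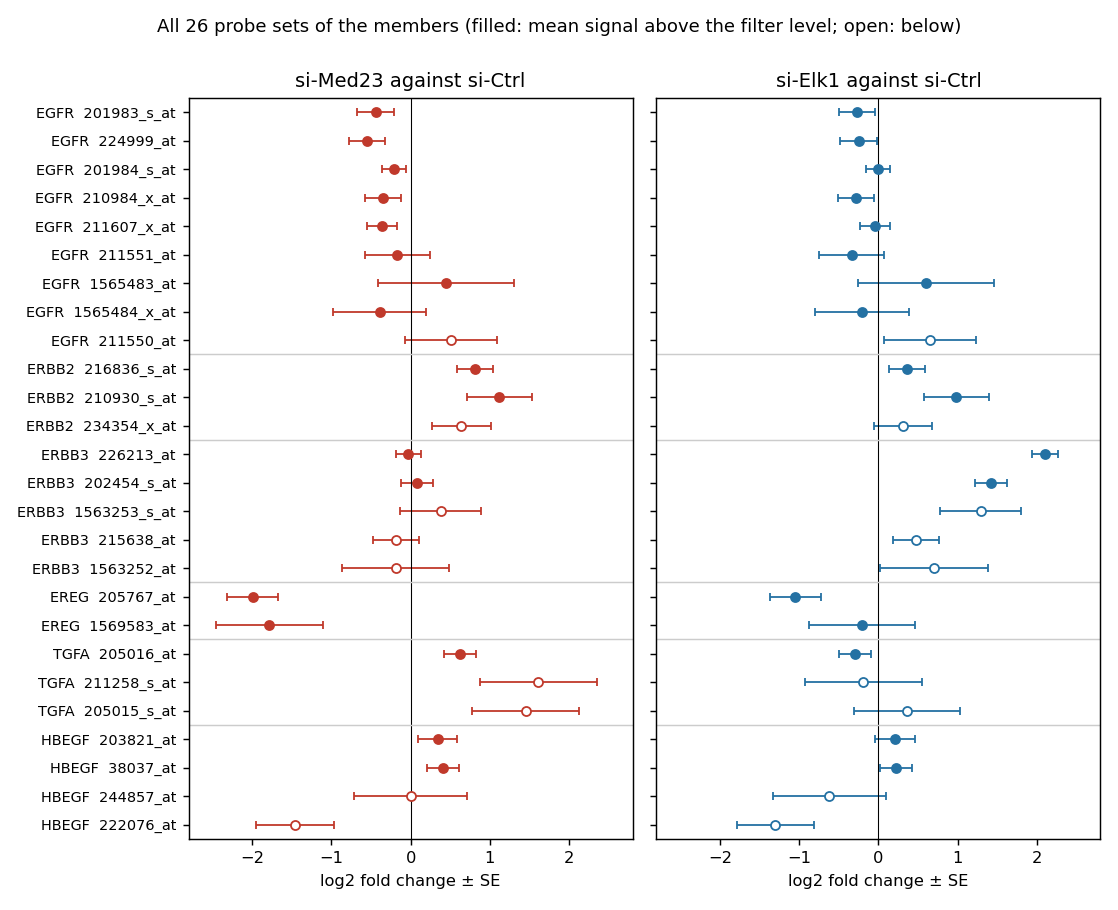
The log2 fold change ± SE against si-Ctrl is plotted for each of the 26 probe sets, with si-Med23 on the left and si-Elk1 on the right; filled points have a mean signal above the filter level and open points lie below it. The 5 ERBB3 probe sets are right of 0 in si-Elk1, and 3 of them are open points. Both EREG probe sets are near -2 in si-Med23 (-1.99 and -1.78), and the ERBB2 probe sets are right of 0 in both panels.

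Among the ligands, EREG, which encodes epiregulin, a ligand of EGFR and ERBB4, had the largest change. Its main probe set read 12.15, 12.11 and 11.94 in si-Ctrl, 10.06, 9.56 and 10.61 in si-Med23 and 11.08, 11.41 and 10.55 in si-Elk1. Both knockdowns lay below the controls on every array, and they overlapped each other only through si-Elk1 oligo C, which read 10.55 beside 10.61 for si-Med23 oligo C. EREG fell in si-Med23 by 1.99 ± 0.29 on the log2 scale (95% interval -2.64 to -1.34; adjusted p = 0.00252), to 25.2% of the control signal. Only 0.682% of tested genes had a lower value. The call held under all 25 alternatives, from -3.60 with poly-A spike scaling to -1.73 without si-Med23 oligo B. In si-Elk1 the log2 fold change was -1.05 ± 0.29 (-1.70 to -0.40), or 48.3% of the control signal, and did not pass (adjusted p = 0.0727; -0.82 with 0.172 without oligo C). That value passed with the stricter filter, array weights, the trended prior and poly-A spike scaling, with adjusted p-values from 0.0202 to 0.0346.

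Set against each other, EREG was lower in si-Med23 than in si-Elk1 by -0.94 ± 0.29 on the log2 scale (adjusted p = 0.0482). This call was near the threshold. It was lost without any single si-Ctrl array, without si-Med23 oligo A or B and without si-Elk1 oligo A or B (adjusted p from 0.0677 to 0.149), and held without si-Elk1 oligo C (-1.17, adjusted p = 0.0181). In all, 14 of 25 alternatives lost it, among them median centring (-0.57, adjusted p = 0.140), no filter (0.108), the fit of 6 arrays (0.0985), the replicate number as a block (0.0961) and quantile normalization (0.0510). The dimmer EREG probe set read 6.88, 6.79 and 7.27 in si-Ctrl, 3.43, 6.07 and 6.11 in si-Med23 and 6.97, 6.48 and 6.86 in si-Elk1. It was lower than si-Ctrl on all si-Med23 arrays, most so with oligo A, which lay below the filter level, and it overlapped si-Ctrl in si-Elk1. Its log2 fold changes were -1.78 ± 0.67 and -0.21 ± 0.67, and neither passed over all probe sets.

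TGFA, which encodes transforming growth factor alpha, an EGFR ligand often made by the tumour cells themselves, went the other way from EREG in si-Med23. It read 8.90, 9.02 and 8.82 in si-Ctrl, 9.50, 9.38 and 9.70 in si-Med23 and 8.86, 8.29 and 8.69 in si-Elk1. All si-Med23 arrays lay above all 6 others, and the si-Elk1 arrays overlapped the controls. TGFA rose in si-Med23 by 0.62 ± 0.17 on the log2 scale (95% interval 0.24 to 1.00; adjusted p = 0.0198), a 1.53-fold change. It no longer passed when si-Ctrl replicate 1, si-Ctrl replicate 3 or si-Med23 oligo C was left out (adjusted p = 0.0555, 0.0686 and 0.0609), with no filter (0.0534) and with hybridization control scaling (0.12, adjusted p = 0.544), and with poly-A spike scaling it became -1.0. In si-Elk1 the log2 fold change was -0.30 (-0.68 to 0.08; adjusted p = 0.287, and -0.34 without oligo C). The knockdowns differed by 0.92 ± 0.17 (adjusted p = 0.0109), a call that held with each array left out, and the value was -0.05 with poly-A spike scaling. In si-Med23 the dimmer TGFA probe sets gave 1.61 ± 0.74 and 1.45 ± 0.67 on the log2 scale, with means below the filter level. In the fit over all probe sets they did not pass, and nor did the main TGFA probe set (adjusted p = 0.104 by limma).

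HBEGF, which encodes heparin-binding EGF-like growth factor, also the diphtheria toxin receptor, passed in no comparison. It read 8.20, 8.12 and 7.74 in si-Ctrl, 8.33, 8.22 and 8.55 in si-Med23 and 8.35, 7.78 and 8.57 in si-Elk1. The si-Med23 arrays lay just above the controls, and si-Elk1 spanned them. The log2 fold changes were 0.34 (95% interval -0.16 to 0.84) in si-Med23 and 0.21 (-0.29 to 0.71) in si-Elk1, with adjusted p-values of 0.238 and 0.559, and 0.04 in si-Elk1 without oligo C. The second bright HBEGF probe set gave 0.41 ± 0.20 and 0.22 ± 0.20 in the same order. The intervals leave room for a rise or a small fall, and the sign of the si-Med23 value turned with both scalings on control probe sets. It passed as a fall with poly-A spike scaling (-1.27, adjusted p = 0.000328) and as a rise with median centring (0.58, adjusted p = 0.0416). The 2 dim probe sets of HBEGF lay below the filter level on all 9 arrays. Their log2 fold changes were 0 and -1.46 in si-Med23 and -0.62 and -1.30 in si-Elk1. None passed over all probe sets, and at such low signals they are not read as changes.

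Direction depends on how arrays are scaled. The deposited values share a trimmed mean, while control probe sets read higher in the knockdowns. The 24 poly-A spike probe sets, for bacterial RNAs added before labelling, averaged 7.61 ± 0.20 with the control oligo (SD, n = 3 arrays), stood at 9.22 ± 0.12 with si-Med23 and at 8.25 ± 0.29 with si-Elk1. Scaling on them moves all values against the controls by -1.61 for si-Med23 and by -0.64 for si-Elk1, and scaling on the hybridization controls by -0.50 and -0.18. The fall of EREG in si-Med23 (-3.60 to -1.76) and the rise of ERBB3 in si-Elk1 (1.46 to 2.12) kept their sign and call under all 4 other scalings. The rises of ERBB2 and TGFA in si-Med23 did not, as given above. ERBB3 in si-Med23, near 0 as deposited, was -0.53 with hybridization control scaling and -1.64 with poly-A spike scaling, and both values passed.

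**Figure D3:**
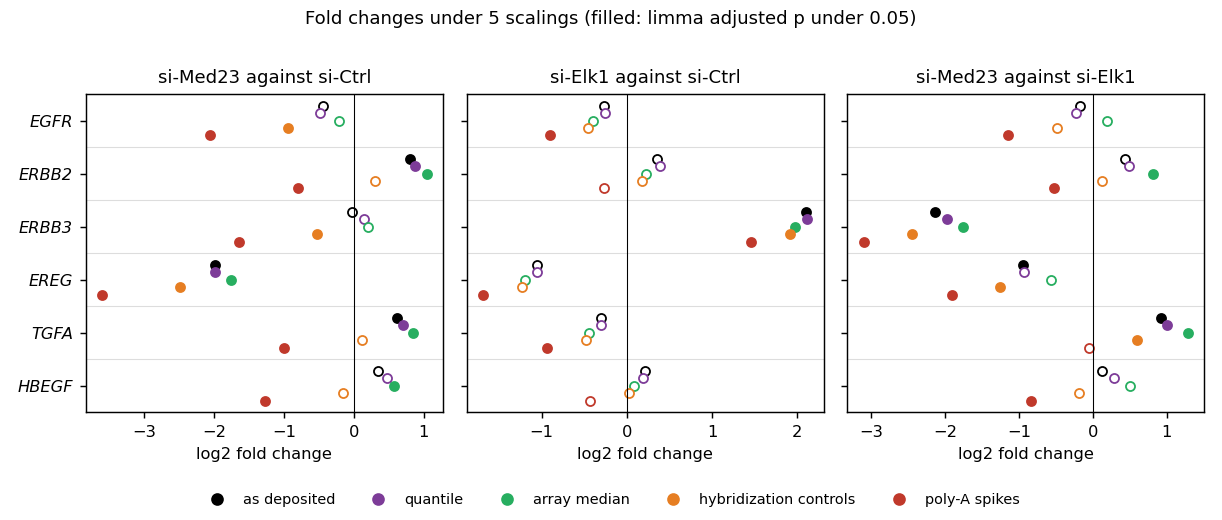
The log2 fold change of each member is plotted for the 3 comparisons under 5 scalings, in colours, with filled points for an adjusted p under 0.05. EREG stays left of 0 in all panels, ERBB3 stays right of 0 in si-Elk1 against si-Ctrl, and ERBB2 and TGFA cross 0 in si-Med23 against si-Ctrl with poly-A spike scaling.

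Differences between members on the same array are not moved by a common shift of that array, as in median centring or scaling on control probe sets, though quantile normalization can move them. A pair of ligands and pairs of receptors, chosen after their values had been seen, are given in that form. They show unequal change and not relative amounts, since probe sets differ in response. TGFA minus EREG was -3.25, -3.09 and -3.12 in si-Ctrl, -0.56, -0.17 and -0.90 in si-Med23 and -2.22, -3.12 and -1.86 in si-Elk1. The shift toward TGFA was 2.60 in si-Med23, with no overlap (exact permutation p = 0.1, 2-sided, the smallest that 3 arrays against 3 can give), and 0.75 in si-Elk1, where oligo B lay within the control range (p = 0.3 by the same exact test). ERBB3 minus ERBB2 was -2.05, -2.11 and -1.88 in si-Ctrl, -2.39, -3.25 and -2.90 in si-Med23 and -0.19, -0.14 and -0.49 in si-Elk1. The pair thus shifted by -0.84 in si-Med23 and by 1.74 in si-Elk1, in opposite directions and with no overlap with si-Ctrl in either (exact permutation p = 0.1 for both). The si-Med23 shift mostly restates the rise of ERBB2 (0.81), since ERBB3 was at -0.03. ERBB2 minus EGFR was -2.99, -2.76 and -2.91 in si-Ctrl, -1.71, -1.33 and -1.87 in si-Med23 and -2.39, -2.69 and -1.69 in si-Elk1. It shifted by 1.25 in si-Med23 and by 0.63 in si-Elk1, each without overlap with the shared si-Ctrl arrays (p = 0.1 for both by the exact test). In si-Elk1, oligo C (-1.69) lay furthest from si-Ctrl. As the pairs were chosen with their values known, these p-values only describe separation.

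The genes whose profile over the 9 arrays came closest to each called member were found by the root mean square difference of log2 values centred per gene, as a description. For ERBB3 they were GRHL3, an epithelial transcription factor (difference 0.235), and CEMIP, a hyaluronan-binding protein (0.238), with log2 fold changes in si-Elk1 of 1.90 and 2.10. For EREG they were UFM1, a ubiquitin-like modifier (0.167), and PPIP5K2, an inositol pyrophosphate kinase (0.182), which had log2 fold changes of -1.74 and -1.91 in si-Med23. For ERBB2 they were GRAMD1A (0.105) and IKBKG, the regulatory subunit of the IkB kinase (0.105), and for TGFA they were UBN1 (0.129) and YKT6, a SNARE protein (0.138). The ranges of the members over the arrays were 2.35 for ERBB3, 2.59 for EREG, 1.25 for ERBB2 and 1.42 for TGFA. As the genes were picked for the smallest differences among all tested genes, their closeness does not show that a match is unusual.

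Of 8 further genes of the family, 3 lay above the filter and were tested: BTC, NRG1 and NRG2. ERBB4, EGF, NRG3 and NRG4 had mean signals below it, and EPGN was not analysed here. BTC, which encodes betacellulin, a ligand of EGFR and ERBB4, read 7.32, 6.98 and 7.27 in si-Ctrl, 5.21, 5.47 and 5.95 in si-Med23 and 7.14, 7.05 and 6.50 in si-Elk1. The si-Med23 arrays all lay below the filter level and below all others. BTC thus entered the test through the other groups, and its size in si-Med23 rests on dim signals. With signals raised to the filter level its log2 fold change was -1.13 against si-Ctrl and -0.84 against si-Elk1. In the main fit the values were -1.64 ± 0.23 and -1.35 ± 0.23, and both passed. Raising makes the si-Med23 arrays identical, so no p-value of that fit is given. Its value of -0.29 in si-Elk1 did not pass. NRG1, a ligand of ERBB3 and ERBB4, was higher in si-Med23 than in si-Elk1 by 0.43 ± 0.12 (adjusted p = 0.0366) and passed against si-Ctrl in neither (0.32 and -0.11). The count of 2 for this list between the knockdowns includes BTC, and 21.7% of all genes passed there. It was 1 or 0 under 16 of the 25 alternatives, among them leaving out any single si-Ctrl array. Without si-Ctrl replicate 1, 2 or 3, 15.8%, 16% and 16.9% of all genes passed.

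Of the 12 genes of ligand shedding, 5 rose and 2 fell in si-Med23, where 39.8% of all genes passed. Their median log2 fold change was 0.11, against 0.09 for all genes. In si-Elk1 0 passed by limma, where 4.26% of all genes passed, and 3 had an unadjusted p under 0.05. ADAM9, a metalloprotease, fell (-0.89 ± 0.19), while ADAM19, another (0.74 ± 0.16), RHBDF1, an inactive rhomboid that guides the sheddase ADAM17 (0.83 ± 0.17), and FRMD8, a partner of those rhomboids (0.46 ± 0.11), rose. In si-Med23 against si-Elk1, CD9, a tetraspanin that binds membrane-anchored HBEGF, was higher (0.88 ± 0.17, adjusted p = 0.0130), as was RHBDF1 (0.59 ± 0.17, adjusted p = 0.0392). These 2 were the only genes of the list to pass there. Leaving out si-Elk1 oligo C gave 6, in a fit where the share of all genes passing also rose, from 21.7% to 35.6%. Leaving out any other array gave 0 or 1, with shares of 6.1% to 16.9%. The count of 7 in si-Med23 was 1 when a gene's probe sets were averaged, where 33.3% of all genes passed.

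Of the 16 adaptors and transducers tested, 3 rose and 4 fell in si-Med23 (median 0.18), and 1 rose in si-Elk1 (median -0.09). Of all genes, 39.8% and 4.26% passed in these comparisons, with medians of 0.09 and 0.05. GRB7, an adaptor whose gene lies near ERBB2, rose in both knockdowns, by 0.96 ± 0.14 in si-Med23 and by 0.73 ± 0.14 in si-Elk1 (adjusted p = 0.00248 and 0.0276). Its si-Elk1 call was lost without any single si-Ctrl or si-Elk1 array. GAB2, a docking protein, rose in si-Med23 (0.93 ± 0.16), and SOS1, the exchange factor that loads RAS (-1.29 ± 0.23), and PTPN11, the phosphatase SHP2 (-1.16 ± 0.23), fell. In si-Med23 against si-Elk1, STAT3, a transcription factor activated downstream of these receptors, was higher (0.73 ± 0.12), as were GAB2 (0.63 ± 0.16) and GRB2, the adaptor that carries SOS1 (0.46 ± 0.14), and PTPN11 was lower (-0.81 ± 0.23). The count in si-Med23 against si-Ctrl, 7, was 12 without si-Elk1 oligo C, where 46.6% of all genes passed. In si-Med23 against si-Elk1 the count was 4, where 21.7% of all genes passed. It was 10 without si-Elk1 oligo C, where 35.6% passed, and 1 or 2 without any other array, where 6.1% to 16.9% passed.

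Of 15 negative regulators, 1 rose and 4 fell in si-Med23 (median -0.18), where 39.8% of all genes passed (median 0.09). In si-Elk1 1 fell (median -0.16), where 4.26% of all genes passed (median 0.05). UBASH3B, a phosphatase that binds the ubiquitin ligase CBL, fell in both, with log2 fold changes of -1.40 ± 0.19 and -0.87 ± 0.19 (adjusted p = 0.00225 and 0.0400), and the si-Elk1 call was lost with any single array left out. In si-Med23, CBLB, a ubiquitin ligase for the receptors, rose (0.96 ± 0.17), and SOCS4, a suppressor of EGFR signalling (-1.54 ± 0.29), and ERRFI1, the feedback inhibitor MIG6 that binds the EGFR kinase (-0.45 ± 0.11), fell. CBLB (0.94 ± 0.17) and SOCS3, an inhibitor of cytokine signalling (1.32 ± 0.28), were higher and SOCS4 lower (-1.06 ± 0.29) in si-Med23 than in si-Elk1. The count in si-Med23 was 5, and it was 3 without si-Ctrl replicate 2, where 30.7% of all genes passed. Between the knockdowns it was 3, where 21.7% of all genes passed. It was 6 without si-Elk1 oligo C, where 35.6% passed, and 1 without oligo A or B, where 6.1% and 7.1% passed.

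Of 18 genes of endocytosis and sorting, 6 rose and 5 fell in si-Med23 (median 0.19, against 0.09 for all genes). In si-Elk1 0 passed by limma, where 4.26% of all genes passed, and 3 had an unadjusted p under 0.05. USP8, a deubiquitinase of internalized receptors (-1.49 ± 0.25), and STAM2, a sorting adaptor (-1.67 ± 0.42), fell, while the clathrin adaptor subunit AP2S1 (0.66 ± 0.15) and the clathrin light chain CLTB (0.67 ± 0.17) rose. The count of 11 was 3, 7 and 4 without si-Ctrl replicate 1, 2 or 3, where 29.1%, 30.7% and 25.2% of all genes passed. It was 5, 6 and 7 without si-Med23 oligo A, B or C, where 32.3%, 29.8% and 32.8% passed, against 39.8% with all arrays. In si-Med23 against si-Elk1, USP8 was lower (-1.03 ± 0.25) and TSG101, a sorting complex subunit, higher (0.38 ± 0.10). The count of 2 there was 9 without si-Elk1 oligo C, where 35.6% of all genes passed, against 21.7% with all arrays. It was 0 to 4 without any other array, where 6.1% to 16.9% passed. In each list most genes did not pass or both directions occurred, and the shares in si-Med23 stand beside the 39.8% of all genes. Directions are those of the deposited scaling, since with poly-A spike scaling 18 genes were higher and 11880 lower in si-Med23.

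**Figure D4:**
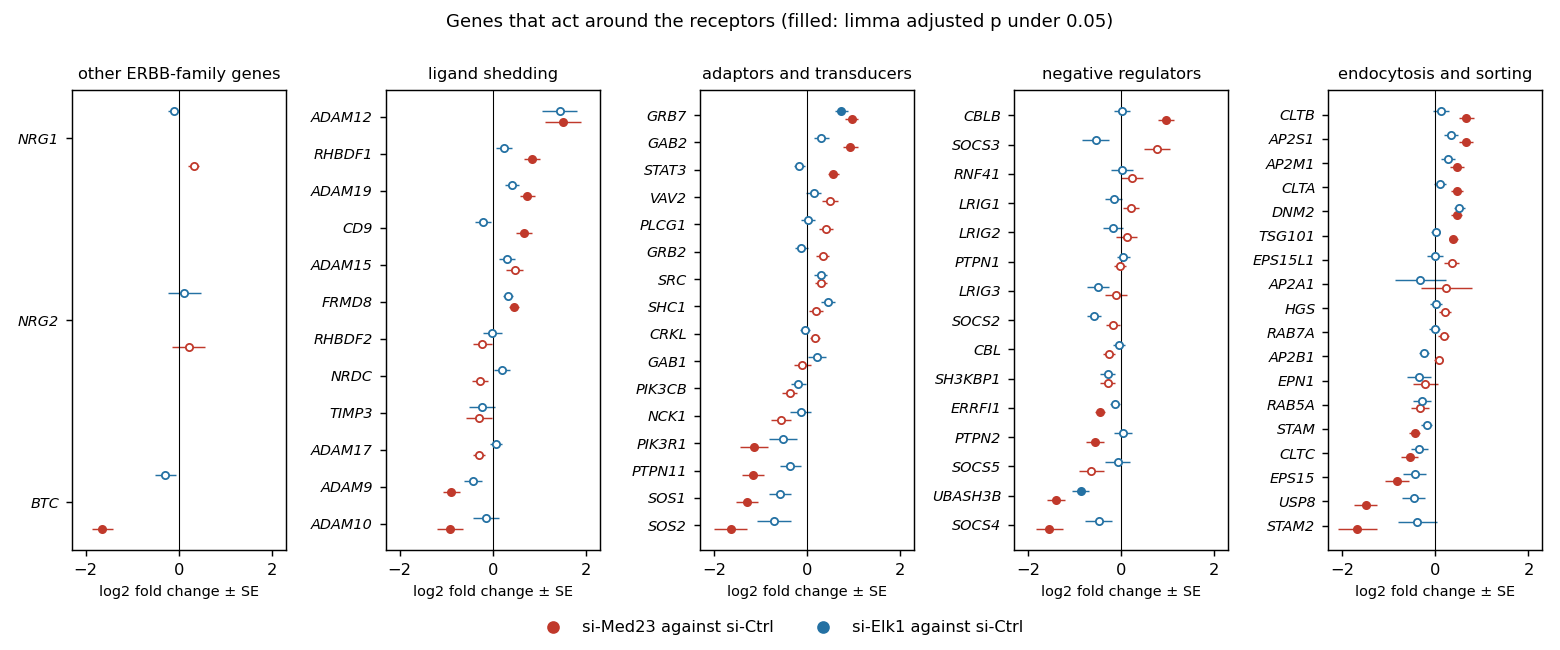
The log2 fold change ± SE of the tested genes of the 5 lists is plotted against si-Ctrl, with si-Med23 in red, si-Elk1 in blue and filled points for an adjusted p under 0.05. Filled red points lie on both sides of 0 in the lists of shedding, adaptors, negative regulators and endocytosis, and the filled blue points are GRB7 and UBASH3B.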

How the data were processed

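The authors deposited 1 linear intensity per probe set and array. RMA and MAS5 are listed, without saying which step each served, in the submitters' processing notes, and the 2% trimmed mean is near 500 on every array. Genome build and detection calls are not given in the sources used here. Here the signals were taken as log2(value + 1), which lowers fold changes of dim genes slightly. Gene names came from the platform's annotation (41091 probe sets with 1 gene), and 0 symbols changed against RefSeq. Each gene was read from its brightest probe set with 1 symbol, and genes with a mean below that of the median probe set (log2 6.05, signal 65.4) were left out.

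Limma 3.58.1 in R 4.3.3 was fitted to all 9 arrays without a block. Array number limits the precision. The fit was tested on simulated data. Members and lists were chosen with earlier results of these data known. Named list genes are the up to 4 called with the smallest p per comparison. The 25 alternatives changed the filter, probe set, scaling, pseudocount, floor, samples, block, weights, prior, threshold, or left out each array. No pairing of the arrays by replicate number was assumed.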

Additional observations from a re-analysis of the deposited data

How the results depend on the processing

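Of 25 alternatives, leaving out each array gave 2 to 4 members called in si-Med23, 1 in si-Elk1 and 2 to 3 between the knockdowns, against 3, 1 and 3. In these fits 25.2% to 46.6%, 0.864% to 3.95% and 6.1% to 35.6% of all genes passed. The main fit had 39.8%, 4.26% and 21.7%. Poly-A spike scaling gave 6, 4 and 5 members called, where 94.3%, 39.6% and 81.3% of all genes passed. An adjusted threshold of 0.01 gave 1 in si-Med23 and 1 between the knockdowns, beside 18.3% and 3.15% of all genes. In si-Elk1, 2 were called with array weights, with the trended and robust prior and at a threshold of 0.10. There 12.6%, 8.43% and 11.9% of all genes passed, against 4.26% in the main fit. In si-Med23 against si-Ctrl, poly-A spike scaling turned ERBB2 to -0.80, HBEGF to -1.27 and TGFA to -1.0, and hybridization control scaling turned HBEGF to -0.15. In si-Elk1 against si-Ctrl, poly-A spike scaling turned ERBB2 to -0.27 and HBEGF to -0.43. Between the knockdowns it turned ERBB2 to -0.53, HBEGF to -0.84 and TGFA to -0.05, and hybridization control scaling turned HBEGF to -0.19, median centring EGFR to 0.19 and leaving out si-Elk1 replicate 2 HBEGF to -0.10 (-0.10 to 0.30 over the arrays left out). ERBB3 in si-Med23, near 0, became 0.01 with the mean of all probe sets, 0.15 with quantile normalization, 0.20 with median centring and 0.03 without si-Ctrl replicate 3 (-0.09 to 0.03 over the arrays left out). Median centring and both scalings on control probe sets act by a common shift per array, and for the other changes, quantile normalization included, the cause was not tested. With the stricter filter ERBB3 was not tested, and without _x_at and _s_at probe sets ERBB2 was not; their values are missing there, as is HBEGF with the mean of all probe sets. As a replicate block the numbers left 3 members called in si-Med23, 1 in si-Elk1 and 2 between the knockdowns. Deviations from the group means correlated between 0 and 0.05 for same-numbered arrays of si-Med23 and si-Ctrl. The values were -0.17 to -0.06 for si-Elk1 and si-Ctrl, and -0.18 to -0.06 for the knockdowns. With 3 arrays per group, and oligo letters that run with the numbers, these values cannot show whether same-numbered arrays were handled together. With the block, the share of all genes called fell from 39.8% to 32.6%, from 4.26% to 1.28% and from 21.7% to 10.5%. Signal near background limits the 9 of 26 probe sets whose mean lay below the filter level.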

Other observations

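The si-Elk1 oligo C array read low for several genes of receptor signalling that fell in si-Med23. SOS1 read 8.93 on it against 9.74 and 9.74 with oligos A and B, PTPN11 11.80 against 12.74 and 12.65, USP8 9.50 against 10.44 and 10.40, and STAM2 9.32 against 10.65 and 10.67. The si-Med23 arrays read 8.55 to 9.04 for SOS1 and 8.83 to 9.22 for USP8. ERBB3 read 9.21 on it, between the 9.36 and 9.15 of oligos A and B. These genes were chosen after their values had been seen, and no test was made.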
